A study of Mus musculus with 6 samples.

Results

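The 10 genes described here encode transcription factors of the primitive streak and of the mesendoderm that leaves it, in mouse embryonic stem cells (mESCs) kept with or without a self-renewal cytokine. They were taken by symbol (T, also called Brachyury, Mixl1, Eomes, Gsc, Evx1, Mesp1, Foxa2, Sp5, Lhx1 and Tbx6), all 10 are among the 28584 genes of the deposited table, and 9 are among the 18556 that were tested. The cells came from 1 mESC line derived from C57BL/6 X 129S6 blastocysts, which was first grown for 5 passages on mitomycin C-inactivated mouse embryonic fibroblast feeders. They then went for 10 passages (P10) into serum-containing ESC basic medium alone (-LIF), into that medium with 1000 U/mL leukemia inhibitory factor (LIF), or into it with 10 ng/mL oncostatin M (OSM), a cytokine of the same family. Poly(A) RNA was sequenced from 2 libraries of each of the 3 groups, 6 in all. All groups share the line and its earlier feeder culture, so no value speaks for a second line. The study calls the libraries of a group biological replicates, but the labels do not say that they came from separate cultures, so the p-values measure the spread between these libraries, which may be technical.

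During gastrulation, Wnt3, Nodal and Bmp4 signals from the epiblast and its neighbours set up the primitive streak, through which cells pass to become mesoderm and definitive endoderm. T and Mixl1 are switched on early in the streak, Eomes acts in its anterior and extends to endoderm and cardiac mesoderm, and Gsc, Lhx1 and Foxa2 mark its anterior end and the organizer. Cultured mESCs stand before this stage, and these factors are commonly read as markers that cells have left self-renewal towards mesendoderm.

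The libraries held 20712939 to 28994417 reads assigned to genes, and values are TPM, read counts scaled to the length of the transcript and to the library's total, so levels of different genes can be set side by side. Pluripotency markers (Pou5f1, Nanog, Sox2, Zfp42, Esrrb and Klf4) were present in every library, with a summed level of 1868 to 1880 TPM in -LIF, 3114 to 3225 TPM in LIF and 2932 to 2979 TPM in OSM. Pou5f1, Esrrb and Klf4 were called lower in -LIF in both comparisons, whereas Nanog was at 436 and 431 TPM in -LIF, 289 and 291 TPM in LIF and 270 and 252 TPM in OSM, under the fold limit (log2 fold changes 0.58 and 0.73, limma adjusted p = 0.000144 and 6.37e-05). Of 9 trophoblast markers chosen, Elf5 was absent from the deposited values and could not be read. Of the 8 measured, including Krt8, Krt18, Hand1 and Cdx2, 7 were called higher in -LIF than in LIF and 5 higher than in OSM, and the sum was 1833 to 1834 TPM in -LIF, 59.3 to 59.7 TPM in LIF and 69.2 to 75.2 TPM in OSM. The keratins Krt8 and Krt18, which simple epithelia in general express, made up 95.2% to 95.3% of that sum in -LIF, and without them it was 85.7 to 87.8, 27.2 to 28.3 and 29.9 to 30.6 TPM in the same order. The 8 fibroblast markers summed to 40.9 to 45.4 TPM in -LIF, 226 to 228 TPM in LIF and 325 to 328 TPM in OSM, and 7 of them were called lower in -LIF in both comparisons. The 10 markers of extraembryonic endoderm stood at 9.65 to 10.8, 31.3 to 31.5 and 19.8 to 20.0 TPM in the same order, with Afp, Ttr and Apoa1 under 1 TPM in every library. The sums of primed epiblast markers (166 to 168, 147 to 149 and 166 to 167 TPM) and of neural markers (59.9 to 62.0, 70.3 to 72.9 and 77.6 to 79.6 TPM) hide members that moved apart. Fgf5, a marker of primed epiblast, was called higher in -LIF, at 17.7 TPM in both libraries against 0.511 to 0.910 TPM elsewhere, and Dnmt3b was lower with a change under the limit (log2 fold changes -0.32 and -0.51). Of the neural markers, Sox1, Pax6 and Zic1 were called lower in -LIF in both comparisons, and Nes was called higher against LIF. The part of these differences in the results on the streak genes was not tested, and in such bulk libraries more cells that express a gene and more RNA per cell cannot be told apart.

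**Figure D1:**
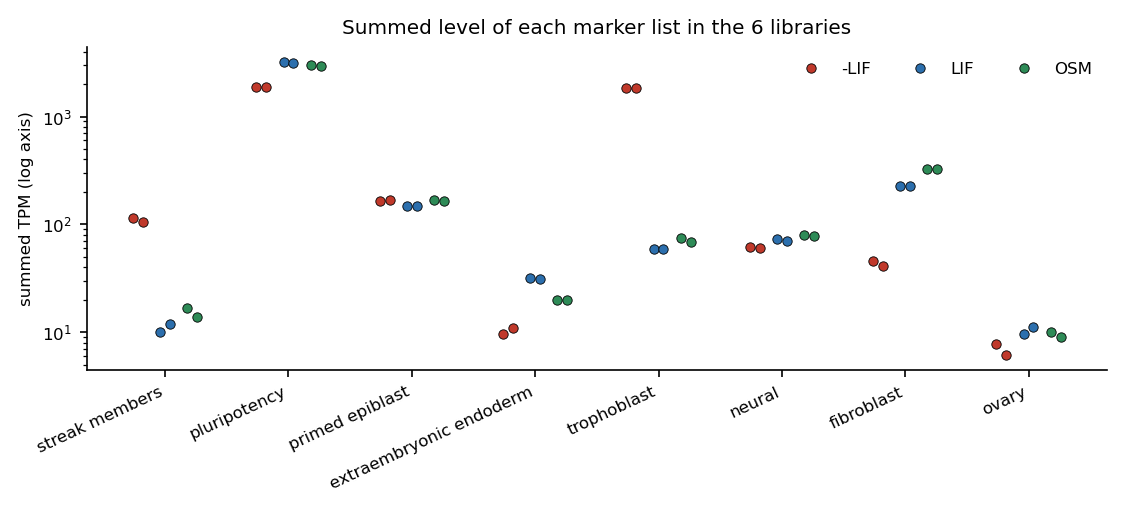
Summed TPM of each marker list (log axis) in the 6 libraries, 1 point per library, for -LIF, LIF and OSM. The trophoblast sum is 1833 to 1834 TPM in -LIF against at most 75.2 TPM in the other groups, and the fibroblast sum is lowest in -LIF, at 40.9 to 45.4 TPM.

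T and Sp5 were the most abundant of the 10 genes in -LIF, and both are well known as direct targets of Wnt signalling through beta-catenin and TCF/LEF factors. Their promoter windows are shown here with the TCF/LEF core in capitals, because both genes stood far higher in -LIF and both windows hold 1 match. Each sequence is the 250 bases before the RefSeq start of the gene on the plus strand of GRCm38.p6, at chr17:8434173-8434422 for T and chr2:70474673-70474922 for Sp5.
T: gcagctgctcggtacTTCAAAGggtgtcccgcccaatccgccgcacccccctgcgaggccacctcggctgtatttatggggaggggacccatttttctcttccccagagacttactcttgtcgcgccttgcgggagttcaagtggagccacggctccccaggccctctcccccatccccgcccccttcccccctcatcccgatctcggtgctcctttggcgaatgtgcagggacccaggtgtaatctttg
Sp5: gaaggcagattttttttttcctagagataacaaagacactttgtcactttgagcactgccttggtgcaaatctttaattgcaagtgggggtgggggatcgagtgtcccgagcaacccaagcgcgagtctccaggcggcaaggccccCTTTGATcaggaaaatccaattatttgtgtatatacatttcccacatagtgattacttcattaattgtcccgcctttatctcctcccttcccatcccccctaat
The core was searched as CTTTGAA or CTTTGAT on both strands. In T it is CTTTGAA on the minus strand, 235 to 229 bases before the start, which reads TTCAAAG above, and in Sp5 it is CTTTGAT on the plus strand, 104 to 98 bases before the start. Such a core is found in 8.65% of all 32851 RefSeq promoter windows, which run from 250 bases before to 50 bases after a start. Among the 9 members with a window, Mesp1 held 2 cores before its start and Foxa2 held 1 behind the third of its listed starts, and the windows of Eomes, Gsc, Evx1, Lhx1 and Tbx6 held none. The T-box site TCACACCT, in 1.28% of all windows, was found in that of Mesp1 only. These matches describe letters in a window only. Mixl1 had no window.

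Without a cytokine, 8 of the 9 tested genes were called higher than in LIF, and the same 8 were called higher than in OSM: T, Mixl1, Eomes, Gsc, Evx1, Mesp1, Sp5 and Lhx1. A call here is a Benjamini-Hochberg adjusted p under 0.05 in limma over all genes tested, with a log2 fold change of at least 1 on the log2(TPM + 1) scale. Of all genes tested, 8.09% were called higher in -LIF than in LIF and 7.86% higher in -LIF than in OSM, while 13.3% and 14.2% were called lower. The median log2 fold change of the 9 genes was 1.34 against LIF and 1.30 against OSM, and that of all genes tested was -0.17 and -0.18. Among the 9, Mixl1, Gsc, Evx1, Mesp1, Lhx1 and Tbx6 reached the minimum of 1 TPM in 2 libraries only through the -LIF libraries. These 6 of the 9 were thus tested because of their values there, which were high for all but Tbx6. The count and the medians are therefore no independent support. The comparisons against LIF and against OSM share the -LIF libraries. With 2 libraries a group, an exact permutation test of a single gene cannot go below a two-sided p of 0.333, so the calls rest on the spread shared across all genes in limma.

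**Figure D2:**
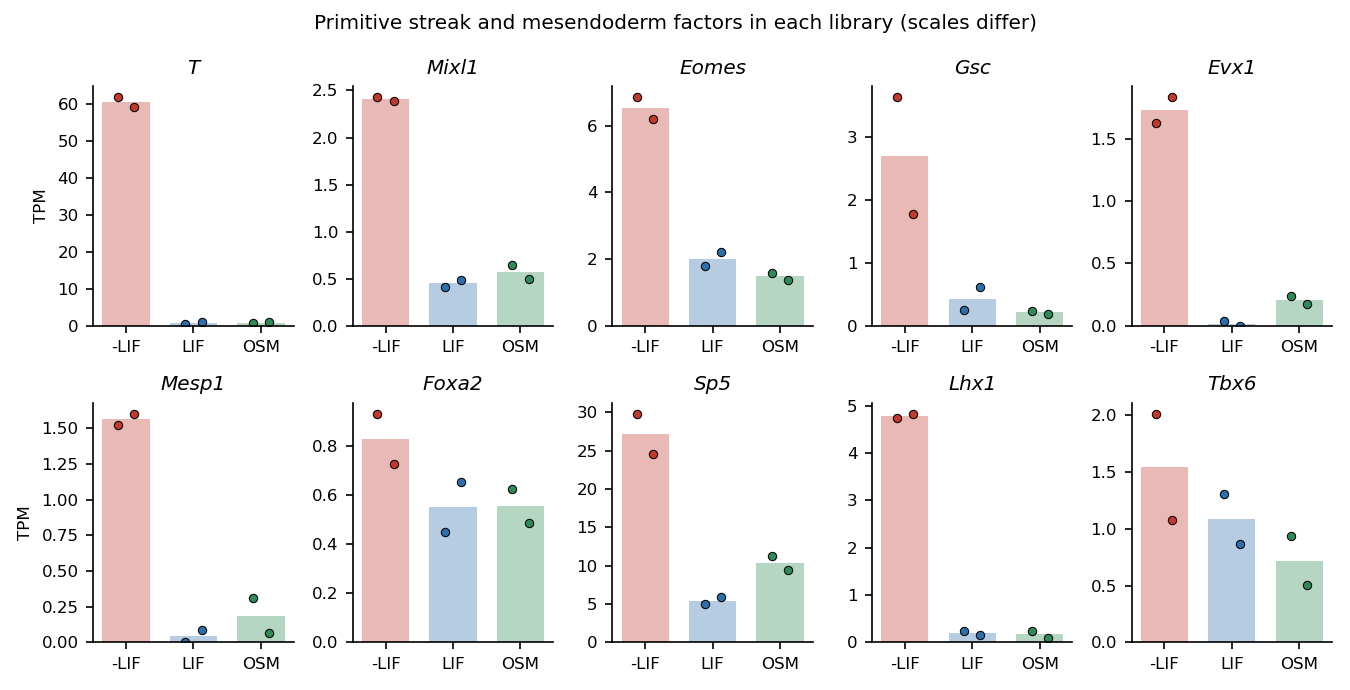
TPM of each of the 10 genes in the 6 libraries (points, replicate 1 to the left) with the group mean (bars), on linear axes from 0 whose ranges differ between genes. In 8 genes both -LIF libraries stand well above the other 4, whereas Tbx6 overlaps between -LIF and LIF and Foxa2 stays under 1 TPM throughout.

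T, the T-box factor that gives nascent mesoderm its identity, had the largest fitted fold change of the 9 tested genes in both comparisons of -LIF. It stood at 61.9 and 59.4 TPM in -LIF, at 0.506 and 1.05 TPM in LIF, and at 0.812 and 1.03 TPM in OSM. Both -LIF libraries were far above the other 4, among which the LIF values enclosed the OSM values. The reads behind these levels were 1622 and 1280 in -LIF and only 11 and 22 in LIF. From pooled reads scaled by depth, the level in -LIF was 78.5 times that in LIF (95% interval 55.7 to 114), and 65.2 times that in OSM (49.0 to 88.6). Ratios between groups, here and in what follows, are such ratios of pooled reads, not of mean TPM. Their intervals are exact Clopper-Pearson intervals on the pooled reads and cover counting error only. On the log2(TPM + 1) scale T was higher by 5.13 (SE 0.16, limma adjusted p = 1.23e-05) against LIF, which placed it at rank 11 among all 18556 genes, and by 5.01 (SE 0.16, adjusted p = 1.25e-05) against OSM, at rank 9.

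Sp5, a zinc finger factor that acts in Wnt-driven transcription, was the second most abundant. Its levels were 29.8 and 24.5 TPM in -LIF, 4.97 and 5.86 TPM in LIF, and 11.3 and 9.50 TPM in OSM. The 3 groups did not overlap, and OSM stood between the others. The pooled level in -LIF was 5.07 times that in LIF (4.37 to 5.90) and 2.66 times that in OSM (2.39 to 2.96). The log2 fold changes were 2.13 (limma adjusted p = 9.25e-05) and 1.30 (adjusted p = 0.000536). Unlike T, Sp5 was already expressed at several TPM with either cytokine.

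Eomes, a T-box factor needed for definitive endoderm and for mesoderm to leave the streak, was measured at 6.84 and 6.21 TPM in -LIF, 1.80 and 2.21 TPM in LIF, and 1.57 and 1.39 TPM in OSM. Its level in -LIF was 3.28 times that in LIF (2.74 to 3.94) and 4.45 times that in OSM (3.69 to 5.41), the smallest ratio against LIF among the 8 called genes. The log2 fold changes were 1.33 (limma adjusted p = 0.000334) and 1.60 (adjusted p = 0.000165). Eomes is also a gene of the trophoblast, whose markers stood higher in the same -LIF libraries. Its exons overlap those of the antisense gene Gm33460 by 118 of 4155 bases. Gm33460 itself was at 7.91 and 11.0 TPM in -LIF, 4.18 and 2.48 TPM in LIF, and 2.40 and 2.61 TPM in OSM, and the strand setting of the read counting is not given in the sources used here, so reads in the shared bases cannot be told apart.

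Mixl1, a homeobox factor of the early streak, was at 2.43 and 2.39 TPM in -LIF, 0.418 and 0.483 TPM in LIF, and 0.647 and 0.503 TPM in OSM. The ratio was 5.35 (3.28 to 9.22) against LIF and 4.24 (2.80 to 6.61) against OSM. Its log2 fold changes of 1.23 (limma adjusted p = 0.000686) and 1.11 (adjusted p = 0.00100) were just above the limit of 1. The pseudocount of 1 shrinks fold changes of genes at such levels.

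Evx1, a homeobox factor of the posterior streak, was almost silent with LIF. It had 53 and 49 reads in -LIF (1.63 and 1.83 TPM), 1 and 0 reads in LIF (0.0371 and 0 TPM), and 7 and 6 reads in OSM (0.241 and 0.172 TPM). Against LIF the ratio of 91.0 rests on that 1 read, and its counting interval runs from 16.0 to 3629. Against OSM the ratio was 8.46 (4.73 to 16.4), and the log2 fold changes were 1.42 (limma adjusted p = 0.000671) and 1.18 (adjusted p = 0.00137). The antisense gene Evx1os shares 73 of the 2877 exon bases of Evx1 and stayed at or below 0.322 TPM in every library.

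Mesp1, a basic helix-loop-helix factor of the earliest cardiac and cranial mesoderm, was about as low. It was at 1.52 and 1.60 TPM in -LIF (22 and 19 reads), 0 and 0.0869 TPM in LIF (0 and 1 reads), and 0.311 and 0.0647 TPM in OSM (4 and 1 reads). The ratio was 36.6 (6.21 to 1479) against LIF and 8.84 (3.49 to 28.7) against OSM, so its size is poorly fixed at this depth. The log2 fold changes were 1.30 (limma adjusted p = 0.00169) and 1.12 (adjusted p = 0.0030). Without OSM replicate 2 the latter was 0.97 (adjusted p = 0.0130), under the limit of 1.

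Among the factors of the anterior streak and organizer, Lhx1 separated the groups most widely. This LIM homeobox gene stood at 4.75 and 4.83 TPM in -LIF, 0.236 and 0.163 TPM in LIF, and 0.243 and 0.101 TPM in OSM. The 2 -LIF libraries were nearly equal, and each of the other 4 held 5 to 10 reads. Its ratio was 23.9 (14.3 to 43.1) against LIF and 28.9 (17.3 to 52.1) against OSM, with log2 fold changes of 2.27 (limma adjusted p = 8.55e-05) and 2.31 (adjusted p = 7.86e-05).

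Gsc, the goosecoid homeobox factor of the organizer, varied most between the -LIF libraries among the called genes. It was at 3.62 and 1.78 TPM in -LIF, 0.252 and 0.612 TPM in LIF, and 0.234 and 0.195 TPM in OSM, and the 2 -LIF libraries differed 2.04-fold (1.20 to 3.56 from counting alone). Both were still above all 4 cytokine libraries. The log2 fold changes were 1.34 (SE 0.28, limma adjusted p = 0.00869) against LIF and 1.56 (SE 0.28, adjusted p = 0.00477) against OSM. Without -LIF replicate 1 the change against LIF was 0.97 (adjusted p = 0.0251), which ended the call.

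Foxa2, the forkhead factor of the anterior streak, node and endoderm, did not reach 1 TPM in any library and was not tested. Its levels were 0.932 and 0.725 TPM in -LIF, 0.450 and 0.655 TPM in LIF, and 0.626 and 0.487 TPM in OSM. Both -LIF values lay above the other 4, and the ratio was 1.52 both against LIF (0.899 to 2.64) and against OSM (0.924 to 2.54), intervals that include 1, so a difference was not detectable at this depth. Tbx6, the T-box factor of presomitic mesoderm and a known target of T, was not called either. It was at 2.01 and 1.07 TPM in -LIF, 1.30 and 0.860 TPM in LIF, and 0.933 and 0.503 TPM in OSM. The -LIF values overlapped those in LIF but not those in OSM, and the log2 fold changes were 0.27 (95% interval -0.37 to 0.91, limma adjusted p = 0.379) and 0.55 (-0.09 to 1.19, adjusted p = 0.104). The 2 -LIF libraries differed 1.87-fold (1.05 to 3.46). In limma's voom on the recovered reads Tbx6 passed both limits against OSM, with a log2 fold change of 1.27 (adjusted p = 0.0174).

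**Figure D3:**
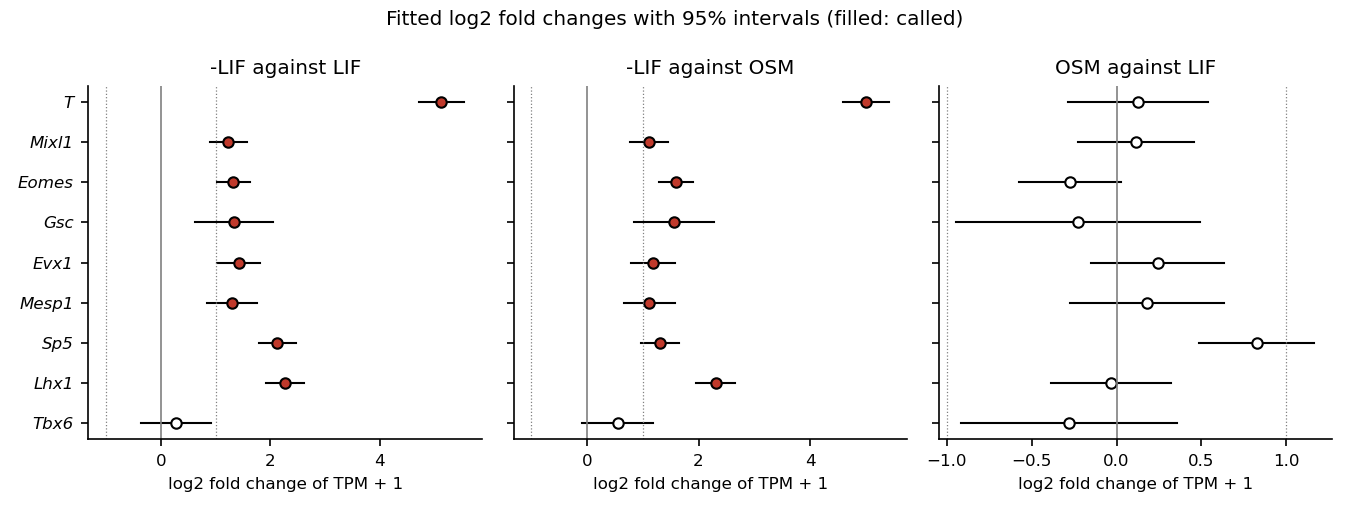
Fitted log2 fold changes of TPM + 1 (x axis) with 95% intervals for the 9 tested genes in the 3 comparisons, filled where called, with dotted lines at -1 and 1. T stands apart at 5.13 and 5.01 in the comparisons of -LIF, and no gene is filled in OSM against LIF, where Sp5 at 0.83 lies farthest from 0.

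By their mean level in -LIF the genes ranked T, Sp5, Eomes, Lhx1, Gsc, Mixl1, Evx1, Mesp1, Tbx6 and Foxa2. Neighbours in this order did not overlap between libraries except that the range of Gsc enclosed Mixl1 and the range of Tbx6 enclosed Evx1 and Mesp1. Summed over the 10 genes, the level was 115 and 104 TPM in -LIF, 9.97 and 11.99 TPM in LIF, and 16.9 and 13.9 TPM in OSM. T alone made up 53.6% and 56.9% of the sum in -LIF, whereas Sp5 made up 49.9% and 48.9% in LIF and 66.7% and 68.1% in OSM. Eomes was the second largest share with either cytokine, at 18.0% and 18.5% in LIF and 9.31% and 9.96% in OSM. The level of the set in -LIF was thus mostly that of T and Sp5, which held 79.4% and 80.4% of it.

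The direct comparison of OSM with LIF asks whether the choice of cytokine mattered for these genes. None of the 9 was called by limma, against 0.0808% of all genes tested, and none by limma's voom. 1 of the 9, Sp5, had an unadjusted p under 0.05, as did 15.3% of all genes tested. Sp5 was at 11.3 and 9.50 TPM in OSM and at 4.97 and 5.86 TPM in LIF, without overlap, a ratio of 1.90 (1.62 to 2.25). Its log2 fold change of 0.83 (SE 0.13, 95% interval 0.49 to 1.17) had an adjusted p of 0.0800, which ranged from 0.00150 in voom on recovered reads to 0.323 without LIF replicate 1 over the alternatives. The fold change was under the limit of 1 in each of them, at 0.71 to 0.94. Like Sp5, other genes that respond to Wnt signalling, Axin2 at 7.78 and 7.13 TPM in OSM against 6.27 and 6.72 TPM in LIF and Lef1 at 3.19 and 2.96 TPM against 2.63 and 2.52 TPM, did not pass the test, and neither did the ligand Wnt8a at 3.00 and 2.41 TPM against 1.47 and 1.33 TPM. Axin2, Lef1 and Wnt8a each stood higher in OSM without overlap, with ratios of 1.14, 1.19 and 1.91. The Wnt antagonist Dkk1 stood lower in OSM without overlap, at 0.122 and 0.0679 TPM against 0.527 and 0.320 TPM in LIF (ratio 0.218). T and the ligand Wnt3 overlapped between OSM and LIF. All but the members were picked here after their values were seen, and the share of all genes without overlap was not counted. A shared Wnt response was not tested.

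For the other members the 95% interval of the log2 difference of OSM from LIF was -0.29 to 0.54 for T, -0.22 to 0.46 for Mixl1, -0.58 to 0.03 for Eomes and -0.39 to 0.32 for Lhx1. These exclude a 2-fold change of TPM + 1 in either direction, although not of the TPM itself for genes this low. Eomes was the only one of the 4 whose point estimate was lower in OSM without overlap of the libraries (ratio 0.736, 0.580 to 0.933, limma adjusted p = 0.369). Evx1, with 13 reads in OSM and 1 in LIF, had a ratio of 10.8 (1.62 to 457) and did not pass limma's test (adjusted p = 0.527). Mesp1 (adjusted p = 0.696), Gsc (0.766) and Tbx6 (0.662) were also not called by limma.

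A wider list of 51 genes that act around the streak was compared, of which 42 were tested. Against LIF, 16 were called higher in -LIF and 8 lower, and against OSM 14 higher and 9 lower, so the wider list did not move in 1 direction. Of all genes tested, 8.09% were called higher and 13.3% lower against LIF, and 7.86% higher and 14.2% lower against OSM. The same shares are the reference for the groups of this list below. The median log2 fold change of the wider list was 0.20 in both, against the medians of all genes given above. After rescaling the libraries by the median ratio the split was 18 higher and 4 lower against LIF and 18 higher and 7 lower against OSM, and over all genes tested it was 1948 higher and 1924 lower, and 1946 higher and 2028 lower. Of the 42, 9 passed the filter on low values only through the -LIF libraries, among them 8 of the genes called higher in each comparison, so these counts and the median are descriptions as well. In OSM against LIF none of the 42 was called by limma, against 0.0808% of all genes tested. An unadjusted limma p under 0.05 was found for 15 of the 42, and for 15.3% of all genes tested. Voom called 1 of the 42, Sox17, lower in OSM with a log2 fold change of -1.40 (adjusted p = 0.0108). The share of all genes that voom called is not given here, so this count has no reference.

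**Figure D4:**
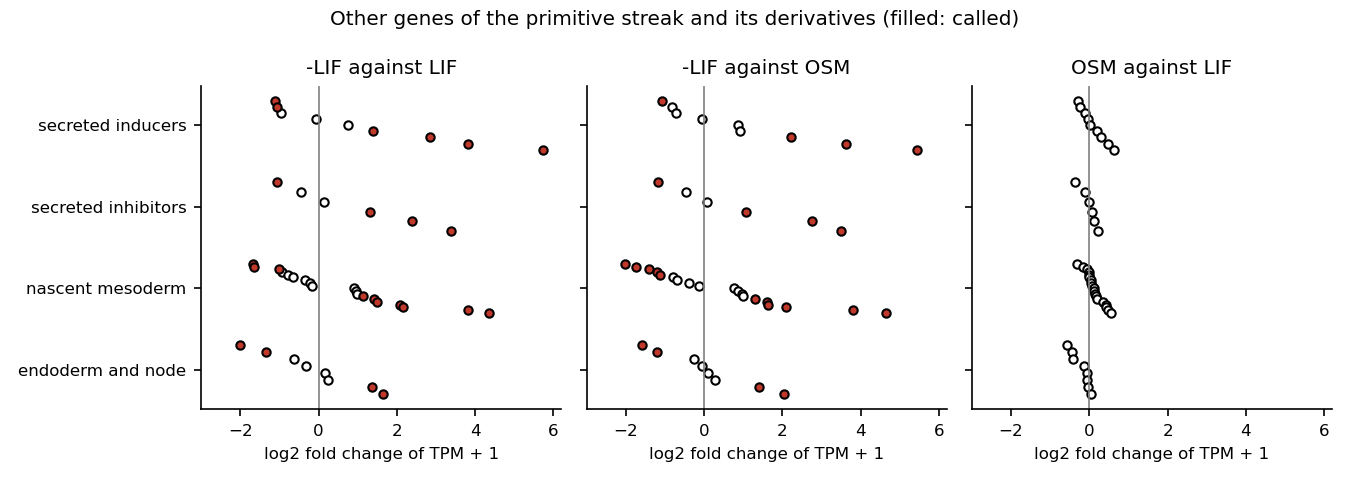
Fitted log2 fold changes of TPM + 1 (x axis) for the 42 tested genes of the wider list, in 4 functional groups and 3 comparisons, 1 point per gene, filled where called. Called genes lie on both sides of 0 in each group of both -LIF comparisons, up to 5.73 for Fgf8, and none is filled in OSM against LIF.

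Among 9 tested genes, which were ligands and, counted with them, their co-receptor Tdgf1, 4 were higher and 2 lower in -LIF than in LIF. Against OSM, 3 of the 9 were higher and 1 lower in -LIF. The ligand Wnt3a was too low to be tested. Fgf8, which drives cells out of the streak, was at 75.0 and 76.3 TPM in -LIF, 0.395 and 0.493 TPM in LIF, and 0.807 and 0.733 TPM in OSM, log2 fold changes of 5.73 and 5.44 that exceeded those of T. Wnt3, the ligand that initiates the streak, was at 21.4 and 20.4 TPM in -LIF and under 1 TPM in the other 4 libraries (log2 fold changes 3.82 and 3.63), and Wnt8a rose as well (2.85 and 2.22). Nodal stood at 67.6 to 73.7 TPM in all 6 libraries (log2 fold changes -0.07 and -0.04, limma adjusted p = 0.249 and 0.429). Its relative Gdf3 was lower in -LIF (-1.06 and -1.08), and Fgf4 was called lower against LIF (-1.10), with a value of -0.82 against OSM. The difference between these 2 comparisons of Fgf4, OSM against LIF, did not pass in the main fit (limma adjusted p = 0.0622). Its limma adjusted p was 0.0422 with rescaled libraries and 1.69e-05 in voom, with log2 fold changes of -0.30 and -0.29, under the limit of 1. The calls of Gdf3 and of Fgf4 were lost with rescaled libraries. Fgf17 was called higher against LIF (1.40), and against OSM its value was 0.93. With rescaled libraries and in voom Fgf17 was called higher against OSM too (1.13 and 1.09). So was Bmp4 (1.05 and 1.04), whose value against OSM in the main fit was 0.86.

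Of the 6 secreted inhibitors 3 were higher and 1 lower in both comparisons. The BMP antagonist Nog was at 27.7 and 31.1 TPM in -LIF against 1.31 to 2.64 TPM elsewhere (log2 fold changes 3.39 and 3.51), and the Wnt antagonist Dkk1 was at 6.04 and 6.91 TPM against 0.0679 to 0.527 TPM (2.39 and 2.77). Cer1, which binds Nodal, BMP and Wnt proteins, was higher by 1.30 and 1.08, with 31 and 27 reads in -LIF and at most 5 in any other library. Lefty1, the Nodal inhibitor, was lower by the fit (-1.05 and -1.16), a call that was lost with rescaled libraries.

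Of 19 tested genes of nascent mesoderm, 7 were higher and 3 lower in -LIF than in LIF, and 6 were higher and 5 lower than in OSM. Msgn1, a presomitic mesoderm factor downstream of Wnt3a and Tbx6, was at 12.7 and 13.3 TPM in -LIF and had no read in the other 4 libraries, at least 48.8-fold higher than LIF and at least 58.9-fold higher than OSM when the empty group is set to 3 reads. Aplnr, a receptor of early mesoderm, was likewise read in -LIF alone, at 3.68 and 2.85 TPM (at least 74.9-fold and 90.5-fold higher). Hand1 (26.3 and 28.8 TPM, log2 fold changes 4.34 and 4.65) and Cdx2 (4.57 and 3.66 TPM, 2.16 and 1.61) were called as well, and both also belong to the trophoblast markers given above. Other mesoderm genes went the opposite way, among them Cdx1, at 2.47 and 2.39 TPM in -LIF, 9.32 and 10.6 TPM in LIF and 13.0 and 12.9 TPM in OSM, and Pdgfra, which fibroblasts also express (log2 fold changes -1.65 and -1.73). Wnt11 was called lower in both comparisons (-1.02 and -1.13, lost against LIF with rescaled libraries), and Foxf1 (-1.39) and Wnt5a (-1.21) against OSM.

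Of 8 tested genes of endoderm and node, Foxj1, the regulator of motile cilia (1.64 and 2.05), and Otx2, a factor of the anterior epiblast and head (1.35 and 1.40), were higher in -LIF. Gata4 (-2.01 and -1.58) and Gata6 (-1.35 and -1.21), zinc finger factors of endoderm that also mark extraembryonic endoderm, were lower, while Sox17, Hhex, Foxa3 and Cxcr4 were not called. Shh, Noto and Foxa1 were too low to be tested.

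Members, and gene models with Gm, Rik, Mir, Snor, AC or AL names, were left out of the search for genes most like T and Eomes. Of the other tested genes, those whose pattern over the 6 libraries was most like that of T, by Euclidean distance between centred log2(TPM + 1) values, were Krt18 (distance 0.469), Rnu3b3 (0.512), Gbp2b (0.555), Rnu3a (0.561) and Alox15 (0.605). Krt18, a keratin of simple epithelia, was at 755 and 776 TPM in -LIF and 18.1 to 23.8 TPM elsewhere. Those most like Eomes were Nuak2 (0.133), Rab11fip4 (0.165), Dll3 (0.181), Pard6b (0.183) and Aldoa (0.196). Of these Dll3, a Notch ligand of presomitic mesoderm, was in the wider list, at 11.0 and 9.54 TPM in -LIF against 2.46 to 3.19 TPM in the other 4 libraries. The distances describe these 6 libraries, which fall into a high and a low group for each of these genes.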

How the data were processed

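Poly(A) RNA of 6 mESC libraries (2 per group) was prepared with a NEBNext Ultra kit. Per the labels and the study's methods, the authors trimmed reads with Trimmomatic, aligned them to mm10 with HISAT2 and counted them with featureCounts, and they deposited 1 table of TPM values, used here. The annotation, the strand setting and the step from counts to TPM are not given in the sources used here. The authors' DESeq2 test on counts was not repeated.

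TPM values were compared as log2(TPM + 1) with limma 3.58.1 (R 4.3.3; lmFit, eBayes with a trend) on 18556 genes that reached 1 TPM in 2 or more libraries, with the 3 groups in 1 fit (3 residual degrees of freedom, 5.33 with the prior). Calls needed an adjusted p (Benjamini-Hochberg) under 0.05 together with a change of 1 or more in log2. Reads were recovered as whole multiples from TPM and GENCODE M21 exon lengths, which matched 28404 genes (99.4%), and 95.4% of values were whole within 0.02 of a read, those of all members included. They served for depth, counting intervals (95%) and an alternative with limma's voom. Libraries within a group differed beyond sampling noise (mean chi-square per gene 1.99 to 3.34).

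The members, gene lists and motifs were chosen with earlier results of these data known. All members are named. Of each other streak list, up to the 4 called genes with the largest change in each comparison are named, with any streak gene counted in a group of 5 or fewer, and the 5 genes most like T and Eomes. Fgf17, Lef1, Axin2, Wnt8a in OSM against LIF, the named cell type markers and other genes outside this rule were named after their values were seen. Promoters are from RefSeq (GRCm38.p6). Alternatives changed the pseudocount, filter, trend, samples in the fit, replicate block, scaling and limits, or left out each library in turn. Python 3.11.15 with numpy 2.4.6, pandas 2.3.3, scipy 1.17.1 and matplotlib 3.10.9 made the tables and plots. The RNA extraction label names ovaries where all other labels name embryonic stem cells. Of 9 ovary markers 5 were in the table, with a sum of 6.12 to 11.1 TPM in any library.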

Additional observations from a re-analysis of the deposited data

How the results depend on the processing

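With a filter of 5 TPM only 3 of the 10 genes (T, Eomes and Sp5) could be tested, and all 3 were called in both comparisons of -LIF. T and Eomes reached 5 TPM only through the -LIF libraries, so their calls under this filter are no independent support. The share of all genes called under this filter is not given here. Voom on recovered reads called 1 gene of the wider list in OSM against LIF, Sox17, where the TPM fit called 0, and the share of all genes called by voom is not given here. In OSM against LIF, the log2 fold change of T ranged from -0.10 to 0.35 as single libraries were left out, with the negative value without LIF replicate 1, and that of Lhx1 ranged from -0.12 to 0.052, with 0.0082 without LIF replicate 1 and 0.052 without OSM replicate 2. None of these passed the test. Leave-out fits kept the main set of genes and assume that the lone library varies like the other groups. The replicate numbers did not pair the libraries (correlations of deviations -0.04, -0.02 and 0.03). With the replicate number as a block the calls were unchanged in number. They were 8, 8 and 0 of the 9 tested members and 24, 23 and 0 of the 42 tested genes of the wider list. A pseudocount of 0.1 gave larger fold changes for low genes, for example 3.96 for Evx1 and 0.52 for Foxa2 in -LIF against LIF, the latter without a test. With 2 libraries a group and few reads for Evx1, Mesp1, Gsc and Foxa2, sizes of change are imprecise, and a gene not called is not shown to be equal between groups.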
